A study of Mus musculus with 2 samples.

Results

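Single-cell ATAC-seq, which marks open chromatin by where the Tn5 transposase cuts, was used to examine embryonic mouse back skin, and 8111 open regions lay more than 100 kb from the nearest annotated transcript start of any gene. These remote regions were chosen by position alone. Peaks of both libraries were merged where they overlapped, regions holding a peak from each library were kept, and the distance from each region to the nearest start of every transcript in GENCODE M21 on mm10 was measured. The rule found 8111 remote regions among 214119 shared regions, 209204 of which were autosomal. The 153755 autosomal shared regions between 2 and 100 kb from a start, called nearer distal regions below, served as the comparison.

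The study compared 1 Control library with 1 MOF cKO library, both from E16.5 back skin enriched for epithelium. The MOF cKO skin carried floxed Mof alleles (gene symbol Kat8) and Krt14-Cre, and the Control was a littermate. Krt14 drives Cre in the basal cells of the epidermis and in the hair follicles that grow from it, so the dermal cells are not expected to lose Mof. Per the labels, K14-H2BGFP-positive and -negative cells were sorted and put back together at 5:1, and the text of the study gives other ratios. With 1 library per genotype, cells are not replicates: no test was run, and every interval below is a 95% interval on fragments that covers counting error only. A region is called higher or lower where its level differed at least 2-fold between the libraries.

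Regions this far from promoters are mostly candidate enhancers, short stretches at which transcription factors displace nucleosomes and from which they can act on genes over long distances. Such elements are known to be used in few cell types each, whereas promoters tend to be open in many. In skin epithelium, AP-1 dimers of FOS and JUN proteins, TEAD factors and the TCF/LEF partners of Wnt signalling are well known at enhancers, and CTCF sites often mark loop anchors. MOF is the acetyltransferase that places acetyl groups on lysine 16 of histone H4, a mark that loosens chromatin.

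The sequences below are the central 300 bases of the 3 remote regions that gained most and the 3 that lost most in epithelial-like cells, followed by the most open remote region of epithelial-like and of fibroblast-like cells. They are given 5′ to 3′ on the + strand of GRCm38 (mm10), in lower case. Capitals mark an AP-1 match (TGACTCA or TGAGTCA) where there is one in a gaining region, a TCF/LEF match (CTTTGAA or CTTTGTT, or their reverse complements) in the losing regions, and a TEAD match (GGAATG or its reverse complement CATTCC) elsewhere. The last 2 of these choices were made after the matches had been seen, and a match is a stretch of letters, not evidence of binding. Over the same 300-base window, AP-1 matched 16.0%, TCF/LEF 14.2% and TEAD 20.1% of all autosomal shared regions.
Gained 1, chr19:15355411-15355710, TEAD: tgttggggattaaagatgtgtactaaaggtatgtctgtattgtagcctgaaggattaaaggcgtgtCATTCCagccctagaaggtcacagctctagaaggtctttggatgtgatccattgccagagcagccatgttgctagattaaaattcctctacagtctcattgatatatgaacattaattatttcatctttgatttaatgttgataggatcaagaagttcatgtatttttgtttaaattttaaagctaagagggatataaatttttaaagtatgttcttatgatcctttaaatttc
Gained 2, chr8:113250172-113250471, AP-1: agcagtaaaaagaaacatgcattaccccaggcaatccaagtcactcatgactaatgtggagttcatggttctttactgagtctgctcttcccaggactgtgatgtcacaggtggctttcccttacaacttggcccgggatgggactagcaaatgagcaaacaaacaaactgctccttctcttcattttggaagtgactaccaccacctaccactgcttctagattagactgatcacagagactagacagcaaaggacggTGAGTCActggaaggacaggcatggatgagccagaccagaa
Gained 3, chr19:31442331-31442630, AP-1: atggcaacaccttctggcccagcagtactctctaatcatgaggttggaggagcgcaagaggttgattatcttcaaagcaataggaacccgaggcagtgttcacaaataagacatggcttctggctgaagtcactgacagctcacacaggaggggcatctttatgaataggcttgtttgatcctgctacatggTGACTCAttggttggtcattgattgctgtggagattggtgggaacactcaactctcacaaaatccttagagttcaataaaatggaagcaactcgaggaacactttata
Lost 1, chr5:29025079-29025378, TCF/LEF: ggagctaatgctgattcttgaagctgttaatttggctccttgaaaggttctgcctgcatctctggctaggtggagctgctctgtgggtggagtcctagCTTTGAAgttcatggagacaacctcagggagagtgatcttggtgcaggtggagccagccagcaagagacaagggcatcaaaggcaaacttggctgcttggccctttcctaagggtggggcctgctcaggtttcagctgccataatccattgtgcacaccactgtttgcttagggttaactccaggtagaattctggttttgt
Lost 2, chr17:62717415-62717714, TCF/LEF: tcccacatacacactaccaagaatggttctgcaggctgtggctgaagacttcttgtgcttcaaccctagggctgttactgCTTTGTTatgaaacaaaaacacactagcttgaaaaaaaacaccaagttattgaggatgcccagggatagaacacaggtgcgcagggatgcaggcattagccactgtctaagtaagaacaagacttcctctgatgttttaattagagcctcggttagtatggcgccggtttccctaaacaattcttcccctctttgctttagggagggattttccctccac
Lost 3, chr15:32443812-32444111, TCF/LEF: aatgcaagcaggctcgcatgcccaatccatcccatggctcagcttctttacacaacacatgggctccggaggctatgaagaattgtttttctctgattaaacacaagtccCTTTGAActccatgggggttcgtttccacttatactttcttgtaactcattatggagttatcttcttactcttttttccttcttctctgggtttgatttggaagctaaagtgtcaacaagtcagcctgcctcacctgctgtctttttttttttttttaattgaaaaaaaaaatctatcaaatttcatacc
Most open in epithelial-like cells, chr13:72198558-72198857, TEAD: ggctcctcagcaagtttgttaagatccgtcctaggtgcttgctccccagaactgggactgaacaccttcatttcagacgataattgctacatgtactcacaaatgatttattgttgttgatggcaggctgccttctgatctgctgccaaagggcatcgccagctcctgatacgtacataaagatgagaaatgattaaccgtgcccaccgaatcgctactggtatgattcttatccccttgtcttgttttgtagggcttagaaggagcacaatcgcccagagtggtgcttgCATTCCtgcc
Most open in fibroblast-like cells, chr2:70262570-70262869, TEAD: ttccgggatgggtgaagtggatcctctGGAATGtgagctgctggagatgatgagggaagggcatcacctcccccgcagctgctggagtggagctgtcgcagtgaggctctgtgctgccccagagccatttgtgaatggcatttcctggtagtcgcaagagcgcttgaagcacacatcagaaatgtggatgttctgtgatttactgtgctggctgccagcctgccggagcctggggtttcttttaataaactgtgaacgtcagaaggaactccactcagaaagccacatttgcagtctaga

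The Control library held 249679 peaks and 169641002 cut sites in 2541 barcodes, and the MOF cKO library 340134 peaks and 324310197 cut sites in 4348 barcodes. Median depth per barcode was close, at 62973 and 66240 sites. Cells were clustered on other regions than the remote ones and named by the openness of marker promoters. Epithelial-like cells numbered 1368 in Control and 2625 in MOF cKO, fibroblast-like cells 662 and 1263, and immune-like cells 46 and 279. The 10 epithelial marker promoters summed to 285 CPM (cut sites scaled to the same total of sites in autosomal shared regions for every class and library) in Control and 265 CPM in MOF cKO cells of this class, and to 37.4 and 40.3 in the fibroblast-like class. The epithelial-like cells separated by genotype: those of Control were in cluster 1 (770 cells) and cluster 3 (598), and those of MOF cKO in cluster 0 (1294), cluster 2 (701), cluster 5 (502) and cluster 11 (91), with 9 and 28 MOF cKO cells in clusters 1 and 3. Levels by cluster below are those of clusters with at least 50 cells of a library, which leaves out these 9 and 28 cells and the 45 Control cells of fibroblast-like cluster 7, unless they are named. Genotype and cluster therefore cannot be told apart in the epithelium, and neither can fewer cells of a state and less openness per cell in any summed level below. The fibroblast-like clusters held cells of both libraries in unequal parts: cluster 4 had 119 Control and 408 MOF cKO cells, cluster 6 402 and 82, cluster 7 45 and 420, and cluster 8 96 and 353. The promoter region of Kat8 read 49.7 CPM in epithelial-like cells of Control and 37.3 CPM in those of MOF cKO, with 30.04 and 28.3 in the fibroblast-like class. In epithelial-like cells this is a log2 ratio of MOF cKO over Control of -0.41, near the median of -0.36 of all regions within 0.5 kb of a start. An open start does not report on a deletion inside the gene. Both libraries used 21 barcodes in common, which were kept.

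Remote regions sat in gene deserts and in very long introns. By annotation, 5130 (63.2%) were intergenic, 2850 (35.1%) intronic and 131 (1.62%) exonic, while nearer distal regions were 45.4% intergenic, 45.1% intronic and 9.54% exonic. The median distance to a start was 136.8 kb, 1398 regions were over 200 kb and 29 over 500 kb away, and the farthest was 625.0 kb away. The closest member lay at 100010 bp and the closest region outside the set at 99995 bp. Measured to protein-coding starts alone the median was 222.8 kb, and 1332 regions were over 500 kb from one. The nearest start belonged to a protein-coding gene for 31.3%, to a processed pseudogene for 23.5% and to a lincRNA for 17.5% of members. The annotation matters here: 4648 members (57.3%) were also over 100 kb from every RefSeq start, and 204 lay within 2 kb of one.

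In sequence the members were poorer in G and C than other open regions. Median GC content was 41.8% in remote regions, 45.2% in nearer distal regions and 54.4% in regions within 500 bp of a start. The median ratio of observed to expected CpG followed the same order at 0.175, 0.202 and 0.457, and 19 members reached 0.6, a common limit for CpG islands. Repeats covered a median of 14.6% of a member, close to 15.9% in nearer distal regions, and at least 50% of the bases in 337 members. Width, at a median of 938 bp, differed little from 930 bp. As a share of all shared regions on a chromosome, remote regions were most frequent on chromosome 8 (5.80%) and least frequent on chromosome 10 (1.82%).

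Of 17725 merged autosomal regions more than 100 kb from a start, 8111 (45.8%) were shared, 1575 came from Control alone and 8039 from MOF cKO alone. Between 2 and 100 kb the shared part was 56.2%, and within 500 bp it was 77.6%. The MOF cKO library also held more cut sites in total, and the part of depth in these counts was not tested.

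Remote regions took a larger share of the open chromatin of MOF cKO epithelial-like cells. They held 1.66% of the cut sites in autosomal shared regions in Control and 2.27% (2.27 to 2.28%) in MOF cKO, a ratio of 1.37. In fibroblast-like cells the share went from 1.92% to 2.04%, a ratio of 1.06, and in immune-like cells the summed share read 0.512% (0.497 to 0.526%) and 0.551% (0.544 to 0.557%). The median immune-like cell went the other way, from 0.520% to 0.474%: cluster 10 read 0.397% in 24 Control and 0.465% in 242 MOF cKO cells, and cluster 14 0.752% in 22 and 0.623% in 37, so no direction is read for this class. Nearer distal regions of epithelial-like cells went from 46.7% to 55.1%, a ratio of 1.18, while regions within 500 bp of a start went from 43.6% to 34.4%. Within the sites over 2 kb from a start, the remote share went from 3.44% to 3.97%, a ratio of 1.15. Cell by cell, the median remote share was 1.66% in Control epithelial-like cells (quartiles 1.49 to 1.85%) and 2.29% in MOF cKO (2.06 to 2.52%), so the quartile ranges of the cells did not overlap. Inside cluster 3, the 28 MOF cKO cells had a median of 2.20% (1.97 to 2.37%) and the 598 Control cells 1.63% (1.44 to 1.82%). By cluster the summed share was 1.69% and 1.64% in the Control clusters 1 and 3, against 2.38%, 2.0%, 2.35% and 1.54% in the MOF cKO clusters 0, 2, 5 and 11. The 91 cells of cluster 11 therefore did not show the higher share. In the fibroblast-like clusters 4, 6 and 8 the share was 1.72%, 1.96% and 1.77% in Control and 1.83%, 2.08% and 1.98% in MOF cKO.

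Region by region, the change in epithelial-like cells was broad and went both ways. All 8111 members passed the minimum of 20 sites. The median level was 1.01 CPM in Control and 1.21 in MOF cKO, and the median log2 ratio (MOF cKO over Control) was -0.02 with quartiles of -0.68 and 0.86. Of the members, 1814 (22.4%) were higher in MOF cKO, where 16.8% of all autosomal shared regions were. Another 1237 (15.3%) were lower, against a background of 12.7%. At least 4-fold differences were seen in 731 members upward and 165 downward, where 6.09% and 1.3% of all autosomal shared regions differed as much. The whole counting interval lay past 2-fold for 1302 members upward and 400 downward, beside 12% and 4.49% of all. Nearer distal regions had a median of -0.10, with 18.5% higher and 13.9% lower. The zero of this scale depends on the scaling, and a distance between 2 medians of the same class does not, by construction. The remote median lay 0.14 above that of all autosomal shared regions, which was -0.16. This distance was 0.21 without the cells of highest doublet score and 0.22 with at least 100 sites a region. With cells thinned to 5000 sites it was 0.46, but 4355 members then passed the minimum, in 1354 Control and 2589 MOF cKO cells. A minimum summed over both libraries is passed more readily by members high in MOF cKO, which had more cells. The thinned value is therefore not a like comparison, nor is that with at least 100 sites, which 7367 members passed. Of the called members 59.5% were higher here, but 50% when scaled to all sites in a library's own peaks, 44.6% when scaled to sites over 2 kb from a start, 53.0% per cell and 68.6% with median-of-ratios factors.

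**Figure D1:**
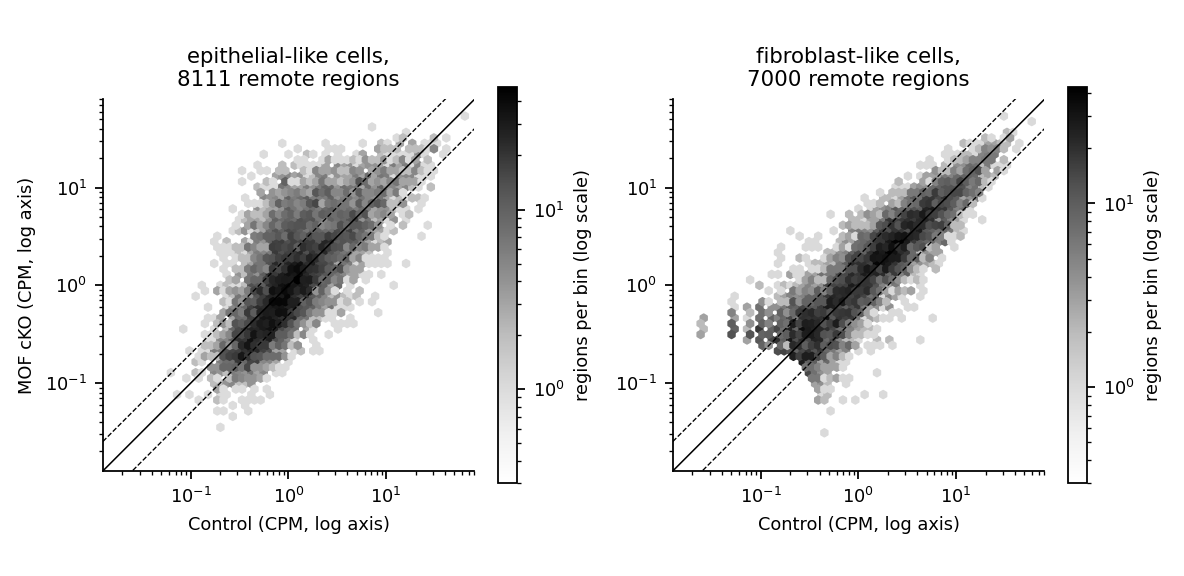
Level of each remote region in Control (horizontal axis) and MOF cKO (vertical axis), in CPM, both axes logarithmic; shading gives the number of regions per hexagon. The solid line marks equal levels and the dashed lines 2-fold differences: in epithelial-like cells 1814 regions lie above and 1237 below them, and in fibroblast-like cells, where the 17 tested regions with 0 sites in either library are not drawn, most of the cloud stays between them.

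Fibroblast-like cells, in which Krt14-Cre is not expected to act, had fewer members past 2-fold. Here 7017 members were tested and 1094 fell under the minimum, and 15 tested members had 0 sites in Control and 2 in MOF cKO. The median was 0.13 with quartiles of -0.40 and 0.69, beside 0.05 in nearer distal regions and 0.02 in all. Members that were higher numbered 1118 (15.9%, background 11.1%) and members that were lower 587 (8.37%, background 7.05%), but the whole interval passed 2-fold for 167 and 79, beside 1.62% and 1% of all autosomal shared regions. Scaled per cell rather than per site, the median was -0.16 and 39.7% rather than 65.6% of the called members were higher, so the direction in fibroblast-like cells rests on the scaling. Inside single clusters the median was 0.10 in cluster 4, 0.04 in cluster 6, 0.23 in cluster 7 and 0.49 in cluster 8. Over all autosomal shared regions it was 0.04, -0.01, 0.10 and 0.21 in the same order. Cluster 8 held 1020183 Control and 13045105 MOF cKO sites, and cluster 7 had 45 Control and 420 MOF cKO cells. There the minimum, summed over both libraries, is passed mostly through MOF cKO, which favours members high in that library. Cluster 6, which held 60.7% of the Control and 6.49% of the MOF cKO cells of the class, had 12.5% of 4510 tested members higher (background 10.3%) and 13.6% lower (background 13.2%). In cluster 4 the shares were 17.4% and 8.70% (background 14% and 6.98%), in cluster 7 27.0% and 9.50% (21.5% and 8.53%) and in cluster 8 33.2% and 12.2% (24.9% and 11.9%). Both classes could be compared at 7017 members, and their changes had a Spearman correlation of 0.36 across regions, a description of sums that share 2 libraries. Of 1551 members higher in epithelial-like cells and tested in both, 569 (36.7%) were also higher and 67 (4.32%) lower in fibroblast-like cells, beside 30.3% and 3.74% in nearer distal regions. Of 1130 members lower in epithelial-like cells, 171 (15.1%) were also lower and 48 (4.25%) higher, close to the 15.8% and 3.92% of nearer distal regions.

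The median log2 ratio was lowest at promoters and highest in the farthest regions, with no steady order between the bins beyond 90 kb. In epithelial-like cells it was -0.36 within 0.5 kb of a start, -0.16 at 0.5 to 2 kb, -0.12 at 2 to 10 kb, -0.10 at 10 to 50 kb and -0.05 at 90 to 100 kb. Inside the set it was -0.07 at 100 to 110 kb (1443 regions), 0.00 at 110 to 150 kb (3421), -0.03 at 150 to 200 kb (1849), -0.01 at 200 to 300 kb (1079) and 0.09 beyond 300 kb (319). The bins on either side of the threshold differed by less than the bins within 2 kb of a start did. Beyond 300 kb, 27.6% of regions were higher and 15.4% lower, beside 20.4% higher at 100 to 110 kb and 16.8% and 12.7% of all autosomal shared regions, and the share of sites held by these 319 regions was 1.71 times as large in MOF cKO.

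**Figure D2:**
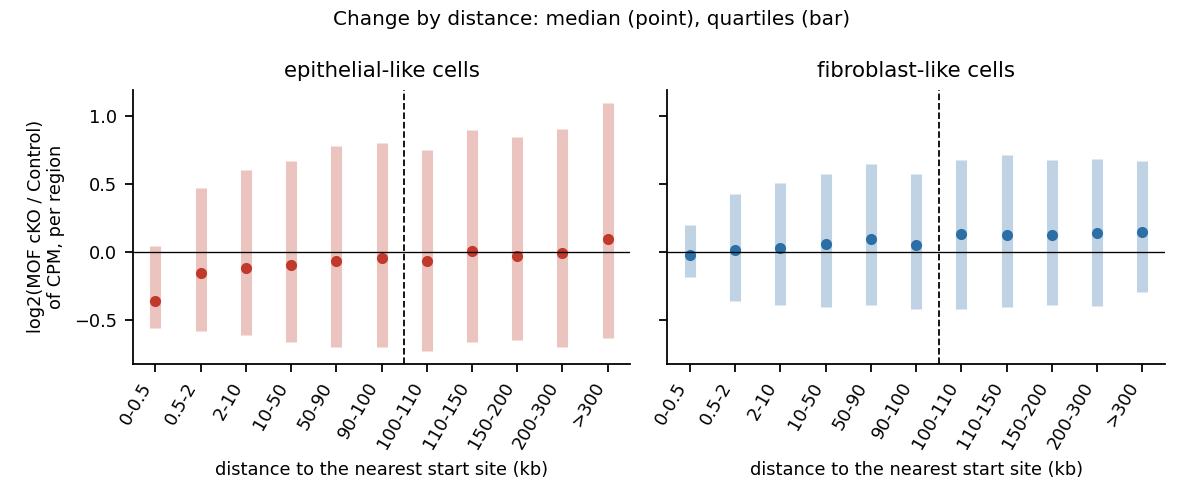
Median (point) and quartiles (bar) of the log2 ratio of MOF cKO over Control per region, by distance to the nearest transcript start in kb, for epithelial-like cells (left) and fibroblast-like cells (right); the dashed line marks 100 kb. In epithelial-like cells the median climbs from -0.36 at promoters to -0.05 just inside 100 kb and stays between -0.07 and 0.09 beyond it, with quartiles that overlap throughout.

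The AP-1 match was the letter pattern that followed the change in epithelial-like cells most closely among the 3 drawn by size of change. Neither the levels nor the binding of AP-1 proteins were measured here. An AP-1 match stood in 1474 members (18.2%), in 838 of the 1814 that were higher (46.2%) and in 37 of the 1237 that were lower (3.0%). Among members at least 4-fold higher the share was 58.1%, and over 8 steps of change from lowest to highest it went from 0.61% to 58.1% and was larger at each step. Members with a match had a median log2 ratio of 1.21, those without a median of -0.19. Nearer distal regions gave 1.10 and -0.24, with a match in 49.6% of the higher ones and 60.2% of those at least 4-fold higher. The 1474 members with a match took 19.6% of all remote sites in Control epithelial-like cells and 35.2% in MOF cKO. By cluster the share was 21.1% and 18.2% in Control clusters 1 and 3, and 36.4%, 36.8%, 29.8% and 37.2% in MOF cKO clusters 0, 2, 5 and 11, with no overlap between genotypes among these clusters of at least 50 cells. Fibroblast-like cells went the same way by a smaller amount, from 13.7% to 18.2%, with a median of 0.55 for members with a match and 0.06 for those without. Inside clusters 4, 6, 7 and 8 those medians were 0.46 and 0.04, 0.24 and 0.01, 0.48 and 0.18, and 0.78 and 0.43. In immune-like cells the share was 29.4% and 30.01%.

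The members that were lower held other matches. The E-box form bound by TWIST proteins (CATCTG or CATATG), which direct mesenchymal cell fate, matched 39.7% of members against 33.0% of all autosomal shared regions, and 52.1% of members that were lower against 34.5% of those that were higher. TCF/LEF matches stood in 17.4% of members and in 21.4% of the lower ones. Homeobox cores (TAATTA) stood in 13.1% of members, 8.80% of all autosomal shared regions and 18.03% of the lower members. Nearer distal regions leaned the same way. There the E-box stood in 35.0% of all, 44.0% of the lower and 32.2% of the higher regions. TCF/LEF matches stood in 15.2% of all and 18.3% of the lower ones, and homeobox cores in 9.67% and 14.1%. Members with an E-box took 32.6% of the remote sites of Control epithelial-like cells and 32.7% of those of MOF cKO. CTCF matches (CCANNAGNNGGC) were in 3.54% of members and 7.33% of nearer distal regions. Their 287 members had a median of -0.03, with 19 (6.62%) higher and 18 (6.27%) lower, below the 16.8% and 12.7% of all autosomal shared regions. Nearer distal regions with a CTCF match were also seldom called, at 4.34% and 3.83% with a median of -0.17.

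**Figure D3:**
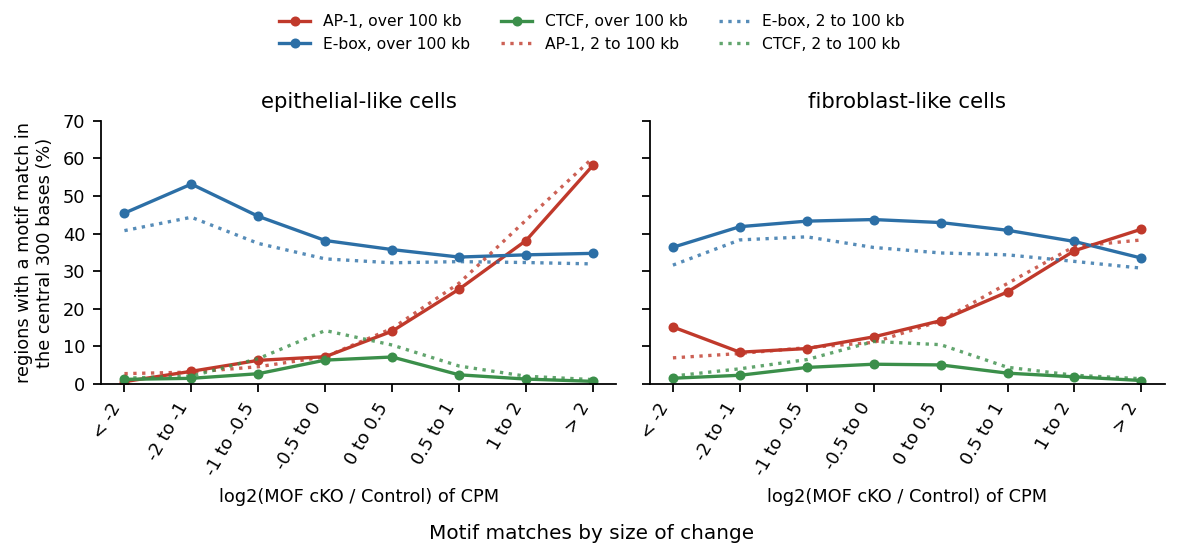
Percent of regions with a motif match in their central 300 bases (vertical axis) in 8 steps of the log2 ratio of MOF cKO over Control (horizontal axis), for AP-1, the TWIST E-box and CTCF, in remote regions (solid) and in regions 2 to 100 kb from a start (dotted). In epithelial-like cells AP-1 goes from 0.61% of the most reduced to 58.1% of the most increased remote regions, while CTCF is highest, at 7.16%, where the change is 0 to 0.5.

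Members were then grouped by the class in which they were open. Summed over both libraries, 2851 members (35.1%) were at least 4-fold more open in epithelial-like than in fibroblast-like cells, 2064 (25.4%) showed the reverse, and 3196 lay between. Nearer distal regions were 30.3%, 17.3% and 52.5%. In epithelial-like cells the epithelial-open members had a median of 0.45 with 995 (34.9%) higher and 272 (9.54%) lower, beside 30.2% and 10.8% in nearer distal regions of this kind. The fibroblast-open members had a median of -0.71 with 83 (4.02%) higher and 671 (32.5%) lower. Fibroblast-open nearer distal regions were alike, with a median of -0.75, 3.74% higher and 35.3% lower. These groups use the same counts as the ratio and are a description. E-box matches stood in 62.4% of fibroblast-open and 27.2% of epithelial-open members, and AP-1 matches in 9.88% and 24.3%.

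Fibroblast marker promoters were also at lower levels in MOF cKO epithelial-like cells, by about as much as the median promoter. The 10 fibroblast markers, all with a region, summed to 80.5 CPM in Control epithelial-like cells and 61.2 in MOF cKO, with none at 0 in either, beside 325 and 297 in fibroblast-like cells. In epithelial-like cells this is a log2 ratio of -0.40, where the median of all regions within 0.5 kb of a start was -0.36. The marker lists of other cell types had ratios of -0.35 (Schwann), -0.27 (melanocyte), -0.20 (muscle), 0.05 (mural), 0.10 (endothelial) and 0.16 (immune) in these cells, and the epithelial list -0.10. Control cluster 3 stood at 95.3, Control cluster 1 at 64.1, and the MOF cKO clusters between 46.0 and 69.5. The part of these levels in the lower members was not tested.

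More than 50% of the lower members were more open in 1 Control cluster than in the other. Of 1236 lower members with enough sites in the Control clusters, 722 (58.4%) were at least 2-fold higher in cluster 3 than in cluster 1 and 38 (3.07%) the reverse. Over all 8064 members tested this way the figures were 25.8% and 13.3%, where all autosomal shared regions gave 18% and 8.03%. Over those that were higher in MOF cKO they were 12.8% and 22.8%. Lower regions 2 to 100 kb from a start also leaned to cluster 3, with 48.3% and 3.73%. Some promoters, picked after their values were seen, were more open in cluster 3 than in cluster 1. Shh, the hedgehog ligand of hair placodes, read 9.54 against 4.21 CPM, Lhx2, a follicle progenitor factor, 7.45 against 2.86, and Twist1 8.18 against 2.04. Others of the same lists of regulators, given below, went the other way. Lef1 read 26.0 against 31.8, Foxn1 16.6 against 23.2 and Fgf10 1.77 against 3.05. Over these lists the ratio of cluster 3 over cluster 1 was largest for Twist1 (4.01), Twist2 (3.44) and Prrx1 (2.98), all mesenchymal regulators. No cell state is read from these promoters. Against cluster 1 alone, 2211 members were higher (27.3%, background 20.3%) and 667 lower (8.24%, background 8.04%). Against cluster 3 alone, 2108 were higher (26.0%, background 19.2%) and 1823 lower (22.5%, background 17.6%). Of the members called higher against all Control cells, 1535 (84.6%) and 1649 (90.9%) were kept in these comparisons, beside 85.6% and 91.0% of the gains over all autosomal shared regions. Of those called lower, 433 (35.0%) and 1130 (91.4%) were kept, beside 43.2% and 88.9% over all, so most losses of either set were not past 2-fold against cluster 1 alone. The gain of AP-1 members was present against either cluster, with medians of 1.28 and 1.45, beside 1.09 and 1.18 for all autosomal shared regions with a match.

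The 8 members that gained most in epithelial-like cells, among the 5923 with at least 200 sites, were chosen by their ratio, which is given as a description. Of these 7 were intergenic, 1 was intronic and 5 held an AP-1 match. The first, chr19:15354833-15356289, lay in a desert 553.4 kb from Psat1, a serine synthesis enzyme, though 6.05 kb from a RefSeq start. It went from 38 sites or 0.337 CPM (0.203 to 0.526) in Control to 2780 sites or 13.7 (13.0 to 14.5) in MOF cKO, 40.8-fold. A site was seen in 1.32% of Control and 35.2% of MOF cKO epithelial-like cells. In fibroblast-like cells this region went the other way, from 4.82 (3.90 to 5.90) to 2.09 (1.60 to 2.65), and in immune-like cells it read 0 (up to 3.92) and 13.9 (10.7 to 17.6). The high levels were thus in MOF cKO cells of 2 classes and in Control fibroblast-like cells.

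The region chr8:113249803-113250840, 384.7 kb upstream of Mon1b, a gene of endosome maturation, went from 0.568 (0.388 to 0.802) to 22.3 (21.4 to 23.2) CPM, or from 1.97% to 45.5% of cells. In fibroblast-like cells it read 0.127 (0.0123 to 0.367) and 0.877 (0.578 to 1.28), a low level that was higher in MOF cKO as well. The third, chr19:31442021-31442941, lay in an intron of Prkg1, the cGMP-dependent kinase of smooth muscle and neurons, 221.4 kb from its nearest coding start. It went from 0.328 (0.189 to 0.505) to 11.9 (11.2 to 12.6), and its fibroblast-like levels of 0.508 and 0.698 had overlapping intervals. These first 3 regions were near the floor in Control epithelium, with 37 to 64 sites each, so their folds are imprecise while their MOF cKO levels are not. The gaining regions given next had 49 to 101 Control sites each, and the same limit holds for them.

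Of the other 5, chr5:58599460-58600468, 877.3 kb from Pcdh7, a protocadherin of cell adhesion, went from 0.515 to 16.3 CPM in epithelial-like cells and from 1.55 to 6.64 in fibroblast-like cells. Slc16a7, a monocarboxylate transporter, was the nearest coding gene of a further pair. The region chr10:124710730-124711710, 597.1 kb from it, went from 0.896 to 27.2 (0.229 to 0.731 in fibroblast-like cells). The region chr10:125170938-125171842, 137.0 kb from it and 9.58 kb from a RefSeq start, went from 0.612 to 15.1 (0.381 to 1.06). The region chr12:27467877-27468779, 125.3 kb upstream of Sox11, a transcription factor of mesenchyme and neural progenitors, went from 0.435 to 13.2, and from 3.71 to 8.52 in fibroblast-like cells. The last, chr17:64192786-64193690, 119.3 kb from the GENCODE start of Pja2, a ubiquitin ligase, but 0.064 kb from a RefSeq start, went from 0.532 to 14.04, and from 1.19 to 3.101 in fibroblast-like cells. In 6 of the 8 the interval of the fibroblast-like log2 ratio lay above 0, in 1 below and in 1 across it. The fibroblast-like median of all tested members was itself 0.13. The share of all members with such an interval is not given, so nothing is read from this count. Levels by cluster ran from 0.187 to 1.48 CPM in Control and from 2.66 to 47.2 in MOF cKO and, in clusters of at least 50 cells, did not overlap in any of the 8, which were chosen by their ratio. Such separation upward was found in 13.1% of members and 11.4% of all autosomal shared regions.

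The 8 members that lost most, chosen in the same way, held no AP-1 and no E-box match, and 6 held a TCF/LEF match. The first, chr5:29024784-29025674, lay in the gene-poor stretch between Shh and Rnf32, 170.3 kb upstream of Rnf32. It went from 962 sites or 8.53 CPM (7.79 to 9.33) to 105 sites or 0.519 (0.384 to 0.674), 16.4-fold lower, and from 24.3% to 2.02% of cells. In fibroblast-like cells it had 23 sites in Control and 0 in MOF cKO, which allows up to 0.120 CPM. Both Control clusters carried it, at 9.23 and 7.91, and the highest MOF cKO cluster read 1.12.

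The region chr17:62717089-62718041, in an intron of Efna5, an ephrin ligand of cell sorting, and 1.87 kb from a RefSeq start, went from 12.4 (11.6 to 13.4) to 1.00 (0.822 to 1.22) CPM. The third, chr15:32443499-32444425, in an intron of Sema5a, a guidance molecule, went from 4.59 (4.04 to 5.17) to 0.390 (0.282 to 0.538). Both were mostly open in Control cluster 3, at 22.2 and 7.98 against 1.63 and 0.824 in cluster 1. The same held for chr13:113941751-113942665 in an intron of Arl15, a small GTPase, at 7.62 against 0.449, for chr7:115359996-115360863 near Sox6, a transcription factor best known from cartilage, at 12.5 against 1.54, and for chr2:133974373-133975306, 422.2 kb from Bmp2, a signalling ligand, at 7.49 against 0.356. The region chr8:114871304-114873147 in an intron of Wwox read 3.49 against 0.655. The region chr1:19866126-19867041, 542.4 kb from Pkhd1, was like the first in reading evenly, at 7.75 in cluster 1 and 7.54 in cluster 3. Among clusters of at least 50 cells, the genotypes overlapped in the region near Bmp2 and not in the other 7, which were chosen by their ratio. Separation downward was found in 11.3% of members and 16.7% of all autosomal shared regions.

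The 28 MOF cKO cells that fell into cluster 3 did not keep that separation in every region. They read 31.2 CPM in the Efna5 region (57 sites), 14.2 in the Arl15 region (26 sites) and 18.6 in the Pkhd1 region (34 sites), but 3.28 in the region between Shh and Rnf32 (6 sites) and 0 in the Wwox region. In the Bmp2 region they read 8.20 (15 sites), and in the 8 gaining regions 0 to 10.9, with the 0 below both Control clusters. These levels rest on few cells and sites, and whether they differ from those of the Control cells of cluster 3 was not tested.

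**Figure D4:**
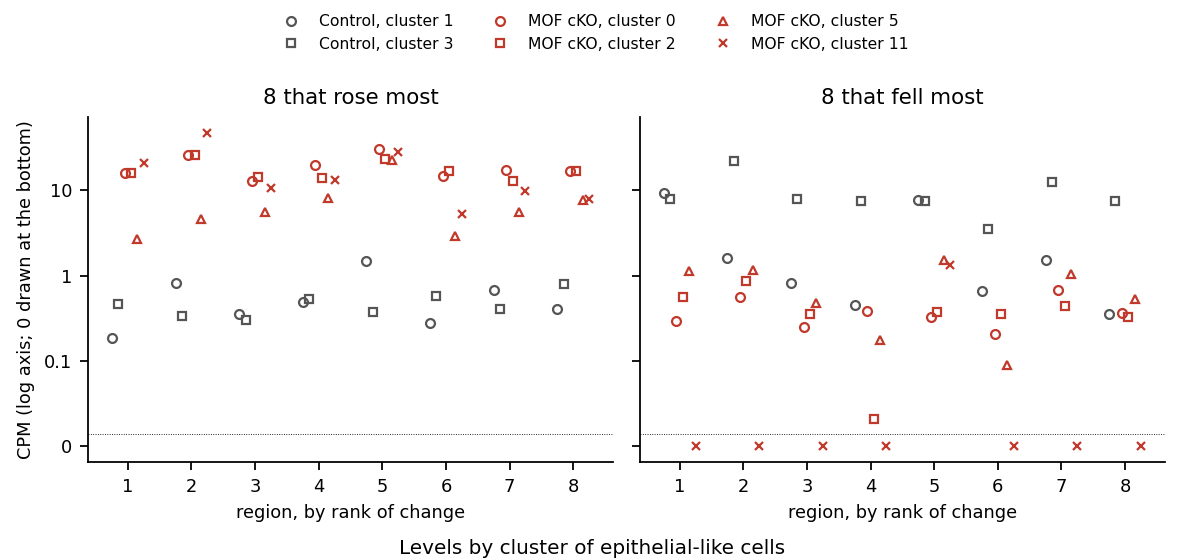
Level by cluster of epithelial-like cells, in CPM on a log axis with 0 drawn at the bottom, of the 8 remote regions that gained most (left) and the 8 that lost most (right), in rank order; grey symbols are Control clusters and red symbols MOF cKO clusters, 1 symbol per cluster with at least 50 cells of the library. On the left every MOF cKO symbol stands above every Control symbol, and on the right cluster 3 of Control stands well above cluster 1 in 6 of 8 regions.

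The 5 most open remote regions of epithelial-like cells all stayed within 2-fold. The highest, chr13:72198212-72199204, 234.5 kb upstream of Irx1, an Iroquois homeobox factor, read 63.4 (61.4 to 65.6) and 57.0 (55.6 to 58.5) CPM, with a site in 78.9% and 78.3% of cells. Those next in order were chr11:7780388-7781384 near Igfbp3, at 39.5 and 32.7, and chr15:51070650-51071727 near Trps1, a GATA-type repressor needed for hair, at 40.4 and 26.4. The region chr8:44758397-44759367 near Fat1 read 28.9 and 32.3, and chr6:51076594-51077531 near Nfe2l3 read 32.1 and 28.6. In fibroblast-like cells the highest was chr2:70262268-70263171, in an intron of Myo3b, at 61.5 (58.1 to 65.1) and 46.9 (44.6 to 49.4). In epithelial-like cells the same region went from 7.83 to 18.1. The others were chr13:47777047-47777965 near Id4, at 31.3 and 51.6, chr7:115452954-115453905 near Sox6, at 43.0 and 30.2, chr12:79675360-79676318 in Rad51b, at 32.9 and 38.7, and chr8:32292872-32293825 in Nrg1, at 36.0 and 35.3.

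In fibroblast-like cells the 4 largest gains and losses, among 2829 members with at least 200 sites, rested on fewer sites. The region chr15:43624351-43625155, 129.4 kb from Emc2, went from 8 sites or 0.203 CPM (0.0553 to 0.520) to 220 sites or 3.57 (2.94 to 4.31), while epithelial-like cells read 1.01 and 0.741. The region chr15:50537312-50538494 near Trps1 went from 0.254 to 3.38, and in epithelial-like cells from 1.88 to 0.465. The region chr19:14197664-14198607 went from 0.533 to 5.18 and gained in epithelial-like cells as well, from 2.56 to 13.9. The region chr12:43436696-43437609 went from 0.406 to 3.09. The largest loss was chr9:68820365-68822024, in an intron of Rora, a nuclear receptor, and 1.34 kb from a RefSeq start, from 5.46 (4.50 to 6.62) to 0.455 (0.249 to 0.763), where epithelial-like cells went from 0.603 to 1.73. The others were chr7:115283703-115284649 near Sox6, from 4.14 to 0.779, chr10:51011260-51012218 near Sim1, from 4.62 to 0.893, and chr8:103932545-103933520 near Cdh5, the endothelial cadherin, from 4.77 to 1.10. By cluster, the Sim1 region read 5.81 in Control and 4.10 in MOF cKO cells of cluster 6, against 1.77 and 0.327 in cluster 4. The Sox6 region likewise read 5.63 and 2.46 in cluster 6. In the same cluster the Rora region read 7.19 and 1.64 and the Cdh5 region 6.32 and 1.43, while in cluster 4 the Rora region read 0.409 and 0.561. The part of cluster make-up in these class sums was not tested. Levels by cluster did not overlap between genotypes for 3 of the 4 gains and for 0 of the 4 losses, where 5.26% and 1.23% of tested members, and 4.24% and 2.05% of all autosomal shared regions, separated upward and downward.

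The 3 members farthest from any start differed in level and in the cells that carried them. The region chr1:114593728-114594752, 625.0 kb from its nearest start, read 1.04 and 0.677 CPM in epithelial-like cells. The region chr18:71743912-71745176, in an intron of Dcc, the netrin receptor, was a fibroblast-like region at 2.74 and 2.81, against 0.319 and 0.143 in epithelial-like cells. The region chr4:77562979-77564098, in an intron of Ptprd, a receptor phosphatase of synapses, went from 0.594 to 5.32 in epithelial-like cells, and 65.7% of it was repeat sequence.

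Regulators of skin development had remote regions that went both ways. Of 42 epithelial regulators 11 were the nearest coding gene of at least 1 member, with 226 members in all, of which 47 (20.8%) were higher and 39 (17.3%) lower in epithelial-like cells (median -0.24), beside 22.4% and 15.3% of all members and 16.8% and 12.7% of all autosomal shared regions. Sox9, a factor of hair follicle stem cells, had 58 members with 12 higher and 9 lower. Klf4, a factor of the skin barrier, had 31 with 8 and 5, Gata3 30 with 7 and 6, and Nfib 25 with 2 and 6. Shh had 14, with 2 higher and 5 lower, of which chr5:28799020-28800202 was the most open at 25.9 and 17.4 CPM. The most changed of the list were chr4:82185713-82186765 near Nfib, from 0.284 to 4.40, and chr18:11263985-11264945 near Gata6, from 0.479 to 5.81. The same list in fibroblast-like cells had 44 higher (22.3%) and 13 lower (6.60%) of 197 tested (median 0.22), beside 15.9% and 8.37% of all tested members and 11.1% and 7.05% of all regions.

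Of 38 mesenchymal regulators 18 had members, 217 in all, with 55 higher (25.3%) and 42 lower (19.4%) in epithelial-like cells (median -0.23) and 29 higher (14.9%) and 19 lower (9.74%) of 195 in fibroblast-like cells. The shares over all members and all regions are those given for the epithelial list. Sox6 and Sox11 went apart: 7 of 38 members near Sox6 were higher and 13 lower, with a median of -0.65, whereas 14 of 22 near Sox11 were higher and 0 lower, with a median of 1.75. Near Ebf1 and Fgf10, a factor and a ligand of dermal cells picked after their values were seen, 3 of 4 members each were lower. Other genes of the list went the other way. Near Zeb1 2 of 3 members were higher and 0 lower, near Zfhx4 2 of 4 and 0, and near Meis2 6 of 14 and 1. The region chr12:34075840-34076732, in an intron of Hdac9 and 118.2 kb from Twist1, went from 0.470 to 9.83. Of the 10 genes that encode AP-1 subunits, 0 had a remote member. Long neuronal genes, which are not known for a role in skin, were the nearest coding gene of 258 members for 22 of 24 genes, with 74 higher (28.7%) and 26 lower (10.1%, median 0.18) in epithelial-like cells, beside 22.4% and 15.3% of all members. Among these Opcml, a neural adhesion molecule, had 12 of 23 higher and 1 lower, and Lsamp 17 of 49 higher and 8 lower. The largest gains were chr4:77488637-77489625 in Ptprd, from 0.772 to 13.4, and chr9:11380192-11381110 near Cntn5, from 1.14 to 17.7. The nearest gene is a label of position and need not be the gene a region acts on.

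The members around Sox11 that gained were mostly upstream of the gene. All 22 lay between 116 and 501 kb from its start, with 12 of 16 higher upstream (median 1.87) and 2 of 6 higher downstream (median 0.29), and 3 of those 6 had a ratio below 0. Over all 22 the median level went from 0.816 to 3.03 CPM in epithelial-like cells. The changes ran from -0.94 to 4.92 on the log2 scale, and 10 of the 22 held an AP-1 match. The most open after the change, 454 kb upstream, went from 2.93 to 19.3 and held none. In contrast, the 85 members of the stretch that begins in Rad51b, a gene of DNA repair, were the most crowded of all, with 82 in introns, and their median level went from 2.48 to 1.5. Of these 10 (11.8%) were higher and 26 (30.6%) lower, 10 held an AP-1 match, and the changes ran from -3.08 to 2.40. Over all autosomal shared regions 16.8% were higher and 12.7% lower. The Rad51b stretch was picked for its number of members, and the Sox11 locus after its values were seen.

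**Figure D5:**
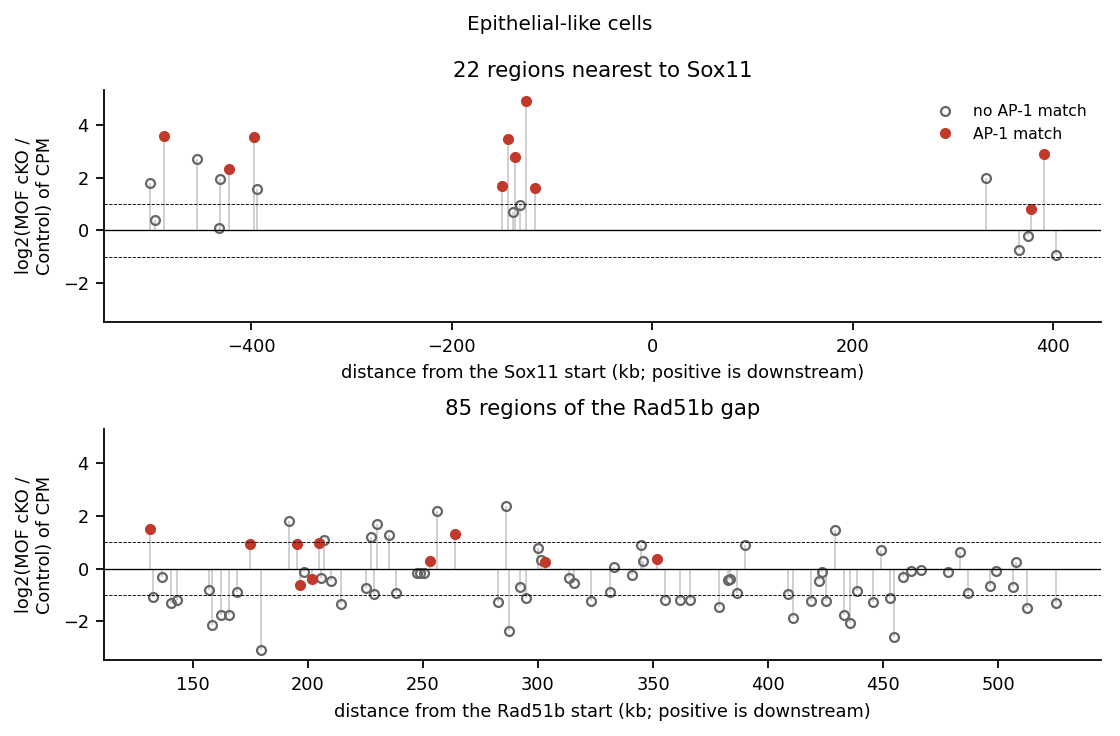
Log2 ratio of MOF cKO over Control in epithelial-like cells (vertical axis) of the 22 remote regions nearest to Sox11 (top) and the 85 of the stretch that begins in Rad51b (bottom), by distance from the start of the gene in kb (horizontal axis, positive is downstream); filled points hold an AP-1 match and dashed lines mark 2-fold differences. Around Sox11 14 regions lie above the upper line and 0 below the lower one, while around Rad51b 10 lie above and 26 below.

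The 8111 members filled 1251 stretches between neighbouring transcript starts, 255 of which held 1 member, with a median of 4 and a maximum of 85. Of the 246 stretches with at least 10 members, 199 held both higher and lower members, 35 higher members but no lower one and 12 the reverse. With 22.4% of all members higher and 15.3% lower, many stretches of this size hold both in any case, and nothing is read from these counts. The 5 fullest were those of Rad51b (85), between Pard3 and Nrp1 (71; 16 higher and 8 lower), Rora (67; 11 and 13), Npas3 (61; 14 and 13) and between Bmp2 and Hao1 (52; 7 and 11), which tied with the stretch between Cdh26 and Cdh4 (52; 21 and 5). The stretch in Arl15 had the lowest median, -1.001 on the log2 scale, with 2 of 23 higher and 12 lower. The stretch between Runx1 and Setd4 had the highest, 1.78, with 8 of 11 higher and 0 lower. The stretch between Pcdh17 and Diaph3 followed, with 11 of 14 higher, 0 lower and a median of 1.62.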

How the data were processed

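Single-cell ATAC-seq was measured in 1 Control and 1 MOF cKO library. The deposited matrices hold raw counts of Tn5 cut sites per peak and barcode, made by the authors with cellranger-atac 2.0.0 per the file headers and aligned to mm10; peaks were called in each library separately. From 88.8% to 91.6% of the values above 0 were even, since most fragments add both ends, and intervals were therefore computed on sites divided by 2 (exact Poisson, binomial and conditional binomial, 95%).

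Peaks of both libraries were merged at any overlap, and counts were summed over the peaks of each merged region. Barcodes with at least 1000 sites were kept (2481 and 4348). Cells were clustered with latent semantic indexing of the 50000 most used shared regions, leaving out the remote ones (30 vectors, of which 1 tied to depth was dropped), 20 neighbours and Leiden clustering at resolution 1. Clusters were named where at least 3 promoters of a marker list (within 500 bp of a start) were 2-fold above a mean. This was the mean of clusters of other classes, with 5 CPM added. Cluster 9, with 333 Control and 8 MOF cKO cells, passed this rule with 8 epithelial markers. It stayed unnamed for its low depth, at a median of 2701 sites. With these cells counted as epithelial-like, 22.3% of members were higher and 15.3% lower. No cells were removed as doublets; leaving out the 5% with the highest doublet score was an alternative. Sites were summed per class and library and scaled to the total of sites in autosomal shared regions (CPM).

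A log2 ratio was computed for regions with at least 20 sites over both libraries, with a side at 0 set to 1 site; at a floor of 3 sites the fibroblast-like median was 0.13 and the calls were the same in number. With 1 library per genotype no test was made, and called means a difference of at least 2-fold. Named regions were the 8 largest gains and 8 largest losses in epithelial-like cells and the 4 and 4 in fibroblast-like cells (at least 200 sites). They also took in the 5 most open of each class, the 3 farthest, the 5 fullest stretches between starts and the 2 most changed of each gene list. The Sox11, Shh, Opcml, Arl15, Runx1 and Pcdh17 stretches and loci were picked after their values were seen. Comparisons inside single clusters were also chosen after the values were seen. Motifs were searched on both strands in the central 300 bases. The members and lists were chosen with earlier results of these data known. The ratios and their intervals were tested on simulated data. Scripts ran under Python 3.11.15; matrices were handled with scipy 1.17.1, pandas 2.3.3 and numpy 2.4.6, clustering used leidenalg 0.10.2 on python-igraph 0.11.9 with vectors from scikit-learn 1.9.0, and plots were drawn with matplotlib 3.10.9.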

Additional observations from a re-analysis of the deposited data

Results flagged for a closer look

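Remote peaks called in 1 library alone were not part of the comparisons. The 8039 such peaks of MOF cKO held 0.795% (0.794 to 0.797%) of the sites in all peaks of MOF cKO epithelial-like cells and 0.346% (0.344 to 0.348%) of those of fibroblast-like cells. The 1575 such peaks of Control held 0.118% and 0.148% of the Control sites in the same classes. A peak called in 1 library has no count in the other, so its level there is unknown.

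At 8 of the 39 named regions tested in both main classes the counting intervals of the log2 ratio lay on opposite sides of 0 in the 2 classes. Most named regions were picked by ratio or by level. The share of all members that meets this description is not given, so nothing is read from the count. The difference between the classes was not tested. The region that gained most in epithelial-like cells, chr19:15354833-15356289, had a log2 ratio of 5.35 (4.70 to 6.09) there and of -1.20 (-1.70 to -0.74) in fibroblast-like cells. The region chr15:50537312-50538494 near Trps1 had 3.73 in fibroblast-like and -2.02 in epithelial-like cells. The region chr9:68820365-68822024 in Rora had -3.59 in fibroblast-like and 1.52 in epithelial-like cells. Among the most open regions of epithelial-like cells, those near Irx1 (-0.15 there and 0.95 in fibroblast-like cells), Igfbp3 (-0.27 and 1.17) and Nfe2l3 (-0.17 and 0.87) met the same description, as did 2 of the most open of fibroblast-like cells, in Myo3b (1.21 in the epithelial-like class, -0.39 in the other) and in Rad51b (-1.47 and 0.24). Under the 4 other scalings, 4 of the 8 kept intervals on opposite sides of 0. Those near Irx1 and Nfe2l3 did not with median-of-ratios factors, nor did those near Igfbp3, near Nfe2l3 and in Rad51b per cell.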

How the results depend on the processing

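With 1 library per genotype no value has a replicate check, leaving out a replicate is not possible, and genotype, library and, in the epithelium, cluster cannot be told apart. No paired analysis was possible because each genotype has 1 library. Of the summary values, 112 moved by less than their counting interval or 1.5 times and 75 by more. Under the 4 other scalings the named regions past 2-fold (31 of 42 in epithelial-like and 23 of 39 tested in fibroblast-like cells) kept their direction, and other alternatives were not run on single regions. Signs changed at named regions within 2-fold: near Fat1 from 0.16 to -0.085 (distal sites), near Irx1 from -0.15 to 0.0034 (median of ratios), and in fibroblast-like cells in Rad51b from 0.24 to -0.050 (per cell) and in Dcc from 0.035 to -0.016 (own peaks) and -0.25 (per cell). Scaled to distal sites, 18.2% of members were higher and 22.6% lower in epithelial-like cells, so the larger share turned. Shallow classes limit the rest: 500 members had enough sites in immune-like cells.

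The remote rule moved the set: 25189 regions at 50 kb, 1398 at 200 kb, 12818 with gene-level starts, 39436 with protein-coding starts and 4648 with RefSeq starts added, against 8111 (RefSeq and the 2 single Control clusters were chosen after seeing the data). In epithelial-like cells the remote share of MOF cKO minus Control, 0.613 points, was then 1.82, 0.123, 0.874, 2.76 and 0.405, and 0.592 with cells thinned to 5000 sites and 0.644 without likely doublets. The median of -0.02 was -0.048, 0.032, -0.058, -0.047 and 0.053 for those 5 rules, 0.49 thinned (4355 regions tested), 0.087 without doublets, 0.083 with at least 100 sites, and under other scalings -0.16 (own peaks), -0.26 (distal sites), 0.14 (median of ratios) and -0.11 (per cell). The distance above nearer distal regions, 0.08, was 0.13 at 200 kb, 0.053 with gene-level starts, 0.31 thinned, 0.14 without doublets and 0.15 with RefSeq. The share higher, 22.4%, was 36.9% thinned. The share lower, 15.3%, was 4.93% with the whole interval past 2-fold, 8.24% against Control cluster 1 and 12.7% without likely doublets. The thinned values and those with at least 100 sites favour members high in MOF cKO, as stated above.

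In fibroblast-like cells the share difference of 0.116 points was 0.295, 0.0253, 0.148, 0.599 and 0.0867 under the same 5 rules. The median of 0.13 was 0.10 at 50 kb and with gene-level starts, 0.15 with RefSeq, 0.077, 0.10, 0.10 and -0.16 under the 4 scalings in the same order, and its distance above nearer regions, 0.08, was 0.056 at 50 kb and 0.10 with RefSeq. Higher and lower shares of 15.9% and 8.37% were 9.93% and 15.1% per cell, and 2.38% and 1.13% with the whole interval.

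Wider windows hold more matches by construction. For the whole region, and for 500 bases, AP-1 stood in 29.1% and 22.3% and the E-box in 71.1% and 52.9% of all members. AP-1 stood in 59.0% and 52.2% of members higher in epithelial-like cells (59.2% of the 500 most changed) and in 11.2% and 5.09% of those lower. The E-box stood in 68.7% and 48.4% of the higher and in 77.7% and 64.1% of the lower, 49.3% with at least 100 sites and 47.4% of the 500 most changed. In fibroblast-like cells AP-1 stood in 49.5% and 42.8% of the higher, and in 23.3% and 14.8% of the lower, 2.51% with at least 100 sites and 5.20% of the 500 most changed. There the E-box stood in 69.1%, 50.2%, 45.9% and 45.0% of the higher and in 74.6%, 55.7%, 59.4% and 56.6% of the lower, in that order. The main values were 37.0% and 41.2%. Among members at least 4-fold higher and lower, the E-box stood in 33.5% and 36.4%. Of 4049 fibroblast-like members with at least 100 sites, 5.90% were lower. The 500 most changed downward therefore take in members within 2-fold.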

Other observations

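Across 587 coding genes that were nearest to at least 3 tested members, the change of the gene's own promoter and the median change of its remote members in epithelial-like cells had a Spearman correlation of 0.14, and 314 genes had the same sign. In fibroblast-like cells it was 0.13 over 541 genes, with 279 of the same sign. Both are descriptions across genes of 2 libraries, in which promoter and members share the scaling. The sign counts also rest on the zero of the scale. In epithelial-like cells the median change was -0.31 for the promoters and 0.03 for the members, so nothing is read from these counts.

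Of the 246 stretches with at least 10 members, 35 held higher members and no lower one, and 12 the reverse. Besides those described, the 12 members of the stretch between Myc and Gsdmc, which holds Pvt1, a long non-coding RNA gene, had 8 higher and 0 lower (median 1.27), and the 12 of the stretch in Dock4, a regulator of the small GTPase Rac, had 8 and 0 (1.33). In Gpc5, a glypican, 11 of 20 were higher and 1 lower (1.18). In Trpm3, an ion channel gene, 0 of 12 were higher and 6 lower. These stretches were picked after their values were seen. In epithelial-like cells 22.4% of all members were higher and 15.3% lower, beside 16.8% and 12.7% of all autosomal shared regions.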
